A study of Mus musculus with 10 samples.

Results

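Erythroid cells of the embryo change the globin genes they transcribe as the site of blood formation moves, and the 7 globin genes followed here are the embryonic genes Hbb-y, Hbb-bh1 and Hba-x and the adult-type genes Hbb-bs, Hbb-bt, Hba-a1 and Hba-a2. They were read in whole mouse pancreas by single-cell RNA sequencing, in every cell barcode in which these 7 genes held 30% or more of the unique molecular identifiers (UMIs, one per captured mRNA molecule), hereafter globin-rich. That rule took 12188 of 58120 barcodes. It used the sum of the 7 genes and not the split between them, so the split was not fixed by the choice of barcodes. The cells came from live Swiss Webster embryos of 3 ages (E12.5, E14.5, E17.5), with no transgene or treatment in any group. With the version 1 kit (v1) there was a pool at E12.5, a pool at E17.5 and a pair of pools at E14.5 from separate batches. With the version 2 kit (v2) there was a pool at each stage, which had been depleted of CD140a+ mesenchyme before loading, and the 2 wells at E17.5 held the same cell suspension and were summed. Each pool joined the pancreata of 1 litter, or of 2 litters at v1 E12.5. Embryos of a pool cannot be told apart, nor can blood within pancreatic vessels and blood carried over at dissection.

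Haemoglobin joins alpha-type with beta-type chains. In the mouse, primitive erythroid cells from the yolk sac enter the blood first and carry epsilon-y (Hbb-y) and beta-h1 (Hbb-bh1) with zeta (Hba-x), while definitive erythroid cells from the fetal liver carry the adult chains and lose their nuclei before they circulate. Primitive cells are also known to turn from Hbb-bh1 to Hbb-y and to take up adult globins as they age in the blood, which is called maturational switching. KLF1 binds CACCC boxes of erythroid promoters, GATA1 binds GATA motifs, and BCL11A and SOX6 are repressors of embryonic globin genes.

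The beta-type genes lie in order on the minus strand of chromosome 7 within 40.7 kb, with Hbb-y (chr7:103851749-103853216) first, then Hbb-bh1 (chr7:103841637-103843164), Hbb-bs (chr7:103826534-103828096) and Hbb-bt (chr7:103812524-103813996). The alpha-type genes lie on the plus strand of chromosome 11 within 20.9 kb, as Hba-x (chr11:32276400-32278116), Hba-a1 (chr11:32283511-32284465) and Hba-a2 (chr11:32296489-32297298), all by GENCODE M21 on GRCm38. The promoters of the genes that were exchanged are printed from 120 bases before to 30 after the start in RefSeq (GRCm38.p6, each gene's own strand), because embryonic and adult genes of a cluster share boxes. RefSeq promoters matched 6 of the 7 genes. Capitals mark every match on either strand to 4 motifs, which can overlap. These are the GATA motif (NGATAN with A or T first and A or G last), the CACCC box, the CCAAT box and the TATA box (TATAA, or else ATAAAA). The windows are chr7:103853178-103853327 for Hbb-y, chr7:103827899-103828048 for Hbb-bs, chr7:103813894-103814043 for Hbb-bt, chr11:32276480-32276629 for Hba-x and chr11:32283552-32283701 for Hba-a1.
Hbb-y: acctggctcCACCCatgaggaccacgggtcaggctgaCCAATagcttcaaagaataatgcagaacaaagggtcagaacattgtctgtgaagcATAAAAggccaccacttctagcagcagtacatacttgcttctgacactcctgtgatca
Hbb-bs: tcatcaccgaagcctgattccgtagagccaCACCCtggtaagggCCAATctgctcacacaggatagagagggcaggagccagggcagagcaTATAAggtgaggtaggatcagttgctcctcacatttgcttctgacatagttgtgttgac
Hbb-bt: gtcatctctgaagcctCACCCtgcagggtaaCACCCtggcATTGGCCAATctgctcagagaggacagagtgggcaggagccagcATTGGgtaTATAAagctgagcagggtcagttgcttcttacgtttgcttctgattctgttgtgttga
Hba-x: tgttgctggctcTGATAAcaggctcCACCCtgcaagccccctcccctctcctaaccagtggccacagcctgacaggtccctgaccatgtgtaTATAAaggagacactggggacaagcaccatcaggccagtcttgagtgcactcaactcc
Hba-a1: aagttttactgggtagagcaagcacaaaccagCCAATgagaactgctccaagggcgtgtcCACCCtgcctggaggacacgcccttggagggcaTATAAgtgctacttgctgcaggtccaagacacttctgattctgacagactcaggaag
A TATA match lay 27 to 29 bases before the start in all 5 windows. Hbb-y held a CACCC match at -111 and a CCAAT match at -83, and Hbb-bs held them at -90 and -76. Within its printed window Hba-a1 had the reverse order, with CCAAT at -88 and CACCC at -60, and a further CACCC match lay upstream of the window at -167. Hbb-bt had CACCC at -104 and -89 and CCAAT at -80, -75 and -36. Hba-x had a GATA match at -108 and CACCC at -95 and no CCAAT in its window. Over the longer full windows of the 32851 promoters in the table, 29.8% held GATA, 57.5% CACCC, 37.4% CCAAT and 33.5% TATA, so each of these matches is common on its own.

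Pools held 3849 to 17433 barcodes and 15671934 to 196793242 UMIs. Globin-rich barcodes made up 3.73% to 18.4% of the 5 earlier pools, against 53.6% (v1) and 39.8% (v2) at E17.5, and every barcode under 200 genes, the minimum of the study, was globin-rich. All 9 listed erythroid markers present in the matrices (Alas2, Slc4a1, Klf1 and others) were detected in globin-rich barcodes of every pool, and 74.0% to 98.4% of these barcodes held at least 3 erythroid marker UMIs. Of globin-rich barcodes with 1000 or more genes, 65.5% to 89.9% also held at least 3 epithelial or mesenchymal marker UMIs, against 0.543% to 2.02% of those under 1000 genes. At v2 E17.5, acinar marker UMIs were in 94.8% of globin-rich barcodes, where acinar transcripts also reached 98.97% of barcodes under 5% globin. Just outside the rule, at 25% to 30% globin, lay 139 barcodes with a median of 2873 genes, and just inside, at 30% to 35%, lay 146 with a median of 2554.5. Libraries of a kit shared 19 to 156 barcode sequences, of which 0 to 21 were globin-rich in both.

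Embryonic globin mRNA stood near the level of adult globin mRNA at E12.5 and was nearly gone at E17.5. The 3 embryonic genes held 49.8% and 38.6% of globin UMIs in globin-rich barcodes at E12.5 (v1 and v2), then 0.116%, 2.48% and 0.526% at E14.5 (v1 batch 1, v1 batch 2 and v2), and 0.0150% and 0.00563% at E17.5. The stage means were 44.2% ± 7.91 (SD, n = 2), 1.04% ± 1.26 (SD, n = 3) and 0.0103% ± 0.00665 (SD, n = 2), and no stage overlapped another. At E14.5 the SD exceeded the mean, with v1 batch 2 the highest of the 3 pools. Because UMIs were summed over barcodes, fewer cells of an embryonic type and less embryonic mRNA per cell cannot be told apart in these shares.

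**Figure D1:**
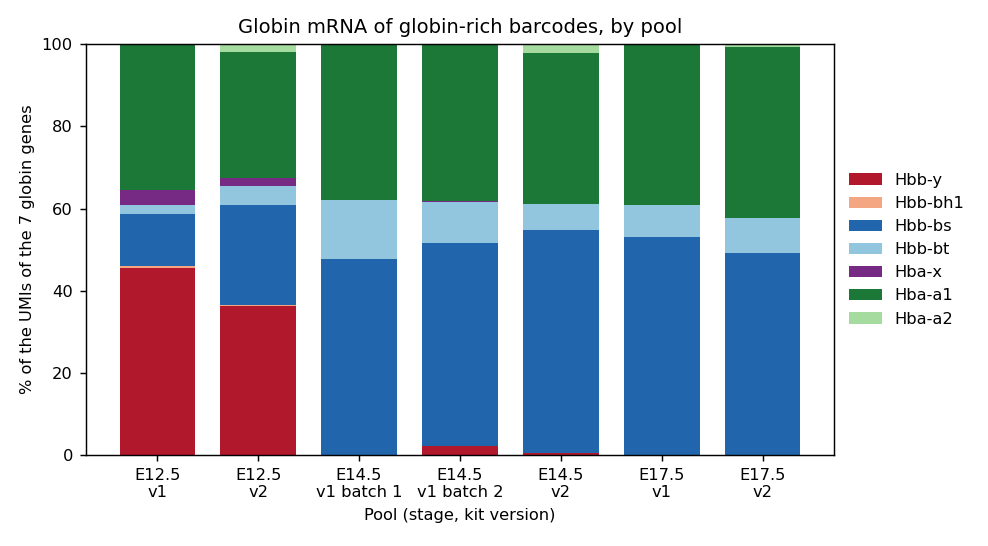
Share of each of the 7 genes in the globin UMIs of globin-rich barcodes (y axis, %), with 1 stacked bar for each pool. Hbb-y, in red, fills 45.5% and 36.3% of the E12.5 bars and at most 2.31% of any later bar, where Hbb-bs fills 47.6% to 54.3%.

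Hbb-y, the epsilon-y chain, carried nearly all of the embryonic beta-type mRNA. It held 45.5% and 36.3% of globin UMIs at E12.5, then 0.0862%, 2.31% and 0.467% at E14.5, and 0.0135% and 0.00480% at E17.5. Hbb-bh1, the beta-h1 chain of the earliest primitive cells, was already a minor gene at E12.5 with 0.615% and 0.340%, and it held 0.0109%, 0.0116% and 0.00608% at E14.5 and 0.000319% and 0.000401% at E17.5. Its fraction of the embryonic beta-type UMIs at E12.5 was 1.33% and 0.930%. Hba-x, the zeta chain, held 3.62% and 1.94% of globin UMIs at E12.5, or 9.27% and 5.62% of alpha-type UMIs. It then held 0.0190%, 0.158% and 0.0524% at E14.5 and 0.00119% and 0.000426% at E17.5. Each embryonic gene was thus lower in every pool of a later stage, and at E12.5 the alpha-type side was mostly adult while the beta-type side was mostly embryonic (75.7% and 56.0% of beta-type UMIs).

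Hbb-bs, the more abundant adult beta gene here, held 12.4% and 24.1% of globin UMIs at E12.5, then 47.6%, 49.3% and 54.3% at E14.5, and 53.2% and 49.1% at E17.5. Hbb-bt, the other adult beta gene, held 2.37% and 4.68%, then 14.3%, 9.92% and 6.30%, then 7.70% and 8.58%. Both were lowest in the E12.5 pools, and neither separated E14.5 from E17.5. Hba-a1 held 35.4% and 30.7% at E12.5, then 37.9%, 38.2% and 36.7% at E14.5, and 39.1% and 41.5% at E17.5, so adult alpha mRNA moved far less over the stages than adult beta mRNA. Alpha-type genes together held 34.6% to 42.3% of globin UMIs in every pool. Hba-a2 separated the kits, at 0.0346% to 0.0742% in the v1 pools and 0.817% to 2.27% in the v2 pools. Kit version, the depletion of CD140a+ cells and the version of Cell Ranger (1.1 for v1 and 2.1 for v2, by the submitters' processing notes) cannot be told apart. The coding sequences of Hba-a1 and Hba-a2 differ at 1 base, and so do those of Hbb-bs and Hbb-bt. The last 100 bases of their transcripts, set side by side without alignment, differed at 74 and 71 positions. A beta-type and an alpha-type gene gave a like count (78 for Hbb-y and Hba-a2), so this does not show how far the ends of a pair differ. The division of UMIs within each of these pairs is therefore uncertain, and the sum of a pair is the safer value.

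The same genes were compared in a fit across all genes, with edgeR's quasi-likelihood test on UMI sums of the 7 pools, total UMIs as library size and kit version as a term. A gene was called at a Benjamini-Hochberg adjusted p below 0.05 and at least 2-fold. Between E12.5 and E17.5, Hbb-y fell by 12.20 on the log2 scale (SE 0.503, adjusted p = 1.61e-124, edgeR), Hba-x fell by 11.70 (SE 0.696, adjusted p = 2.24e-59) and Hbb-bh1 fell by 10.06 (SE 0.794, adjusted p = 3.29e-33). Hbb-bs rose by 1.68 (SE 0.276, adjusted p = 3.27e-07) and Hbb-bt by 1.37 (SE 0.343, adjusted p = 0.00284), while Hba-a1 at 0.46 (adjusted p = 0.191) and Hba-a2 at -0.26 (adjusted p = 0.656) were not called. That made 2 of the 7 genes higher and 3 lower, where 1.24% and 9.67% of 9512 genes tested were called in those directions (10.9% in either). The rises of the adult beta genes are not independent of the fall of Hbb-y, since the rule chose barcodes in which the 7 genes held many UMIs. With batch as a block (v1 batch 1, v1 batch 2 and v2), added after the data were seen, 195 of 11317 genes were called higher and 1416 lower, with the same calls for the 7 genes. By the paper's methods the v2 stages were run on different days, so this block cannot separate day from stage within v2. The v1 batch 1 level held a single pool, which therefore added nothing to the stage differences. These samples are litters or suspensions. The edgeR fit draws on all genes to set the spread of each, so its p-values do not rest on a gene's own spread between pools. Each SE given is the log2 change divided by the square root of the F statistic, so the same limit holds for the SEs. Hbb-y ran from 0.0862% to 2.31% of globin UMIs over the 3 pools of E14.5, and the size of its p-values is not a measure of that spread.

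The embryonic genes were already called lower at E14.5. Against E12.5, Hbb-y was lower by 5.83 on the log2 scale (adjusted p = 4.71e-64, edgeR), Hbb-bh1 by 5.82 (adjusted p = 6.52e-22) and Hba-x by 5.40 (adjusted p = 6.07e-29), and Hbb-bs and Hbb-bt were higher by 1.45 and 1.43 (adjusted p = 1.87e-05 and 0.00520). Of all genes, 1.46% were called higher and 0.484% lower in that comparison (1.94% in either direction). From E14.5 to E17.5 the embryonic genes fell again by 6.37, 4.24 and 6.30 on the log2 scale for Hbb-y, Hbb-bh1 and Hba-x (adjusted p = 1.96e-54, 7.16e-09 and 2.33e-26), and no adult gene was called, nor had one an unadjusted p below 0.05, with values from -0.60 to 0.38. In that last comparison 58.8% of all genes were called lower and 0.505% higher (59.3% in either direction), and the median of all genes was -1.79, as it was -1.23 from E12.5 to E17.5 and 0.60 from E12.5 to E14.5. With TMM scaling, which brings these medians to about 0, all 3 embryonic genes were still lower at E17.5 than at E12.5 (adjusted p = 0.00442 for Hbb-y), but none of the 3 was called from E14.5 to E17.5 (adjusted p = 0.219, 0.138 and 0.0515), and Hbb-y was not called from E12.5 to E14.5 (0.0506). DESeq2 also lost Hbb-y in those comparisons (0.767 and 0.273), and the fit without the kit term lost Hbb-bh1 from E14.5 to E17.5 (0.357). The calls for the adult beta genes were lost with TMM (E17.5 and E12.5: adjusted p = 0.310 for Hbb-bs, 0.222 for Hbb-bt) and without the kit term (0.670 for both). The call for Hbb-bt was also lost without the v1 E12.5 pool (0.491), without v1 E14.5 batch 2 (0.0933) or without v1 E17.5 (0.118), and that for Hbb-bs with DESeq2 (0.472). From E12.5 to E14.5 both calls were lost with TMM (0.898 for Hbb-bs, 0.878 for Hbb-bt), without the v1 E12.5 pool (0.544 and 0.948) and without v1 E14.5 batch 2 (0.168 and 0.180). They were also lost with DESeq2 (0.943 and 0.682), without the kit term (1.00 for both) and at a limit of 50% globin (0.215 and 0.284). There Hbb-bt was lost too without v1 E17.5 (0.145). Without the filter on low counts Hbb-bt was called in neither comparison (0.121 from E12.5 to E14.5 and 0.0528 from E12.5 to E17.5). The 7 genes held most UMIs of these barcodes, and total UMIs were the library size. The adult beta values are thus not independent of the fall of Hbb-y. The part of that fall in their rise was not tested.

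Single barcodes fell into separate kinds rather than along a gradient. The embryonic fraction of beta-type UMIs (Hbb-y and Hbb-bh1 over all beta-type genes) was taken in each globin-rich barcode, all of which held at least 50 beta-type UMIs. At v1 E12.5 no barcode lay between 0.370% and 60.4%. With 50% or more called embryonic-type and under 5% adult-type, limits set after the distribution had been seen, the 304 barcodes of that pool were 275 embryonic-type and 29 adult-type. The v2 E12.5 pool held 474 and 294 of 771, and 3 barcodes between them at 41.3%, 46.6% and 49.5%. At E14.5, embryonic-type barcodes were 2 of 389 in v1 batch 1, 85 of 954 in v1 batch 2 (8.91%, exact 95% binomial interval 7.18% to 10.9%) and 4 of 343 in v2, which also had 2 between the limits at 14.8% and 38.9%. At E17.5 they were 2 of 2484 and 1 of 6943. The 4 of v2 E14.5 all had 1000 or more genes, with medians of 1576 genes and 40.1% globin. Of the 145 globin-rich barcodes of that pool with as many genes, 80.7% held at least 3 epithelial or mesenchymal marker UMIs. In all, 843 barcodes were embryonic-type, 11340 adult-type and 5 neither.

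**Figure D2:**
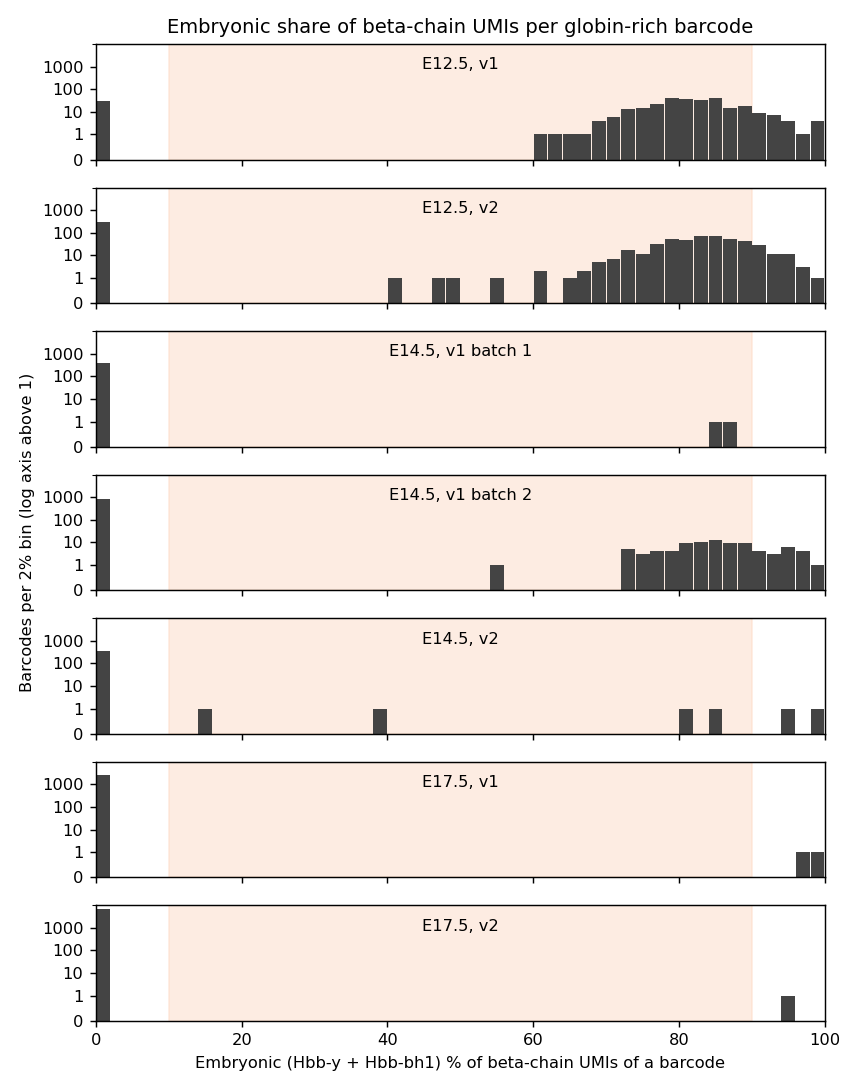
Number of globin-rich barcodes (y axis, log scale above 1, bins of 2%) by the embryonic fraction of their beta-type UMIs (x axis, %), with 1 panel for each pool and the mixed range of 10% to 90% shaded. Barcodes pile up near 0% and, in the E12.5 pools and v1 E14.5 batch 2, above 50%, and 5 of 12188 barcodes lie from 5% to 50%.

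A few embryonic-type barcodes held nearly all of the Hbb-y left at E17.5. At v2 E17.5 a single embryonic-type barcode held 2822 of the 2919 Hbb-y UMIs of 6943 globin-rich barcodes, and at v1 E17.5 a pair of barcodes held 1487 of 1527. In the adult-type barcodes left, the embryonic genes made up 0.000734% of globin UMIs at v2 E17.5 and 0.000789% at v1 E17.5. The 5 barcodes between the limits held 223 to 594 genes, 87.1% to 90.7% globin, 0 mesenchymal marker UMIs and 0 or 1 epithelial marker UMI. A droplet holding an embryonic-type and an adult-type cell would also fall between the limits, and how many of the 5 did was not tested.

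Most embryonic-type barcodes were themselves of mixed globin content. If a mixed barcode is one with 10% to 90% embryonic beta-type UMIs, 82.2% of globin-rich barcodes were mixed at v1 E12.5 and 54.6% at v2 E12.5. The values were 0.514%, 7.02% and 1.17% at E14.5 (v1 batch 1, v1 batch 2 and v2). At E17.5 there were 0 of 2484 and 0 of 6943, which allows shares of up to 0.121% and 0.0432%. With 20% to 80% as the range the E12.5 mean went from 68.4% to 25.8%, since most mixed barcodes lay between 80% and 90%. Of embryonic-type barcodes, 2 of 275 at v1 E12.5 and 0 of 474 at v2 E12.5 held under 10 Hbb-bs UMIs (a count of 0 allows up to 0.633%), with medians of 948 and 756 Hbb-bs UMIs. Barcodes under 5% globin of the same pools held a mean of 0.392 and 3.18 Hbb-bs UMIs, so the adult beta mRNA of embryonic-type barcodes was far above the level found in other cells.

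The make-up of the embryonic-type barcodes was much alike in the 3 pools that held over 80 of them (v1 E12.5, v2 E12.5 and v1 E14.5 batch 2). Hbb-y held 49.1%, 54.7% and 47.2% of their globin UMIs, Hbb-bs 9.66%, 9.71% and 7.93%, and Hba-a1 35.04%, 29.1% and 40.1%. The embryonic fraction of beta-type UMIs was 81.5%, 83.3% and 83.8%. The type was defined by 50% or more of this same fraction, so a cell with less would be counted elsewhere, and nothing is read from its values across the stages. Hbb-bh1 was 1.33%, 0.917% and 0.463% of the embryonic beta-type UMIs, and Hba-x was 10.0%, 8.65% and 7.43% of the alpha-type UMIs. Both of these were lowest in the E14.5 pool, which is 1 litter, and no test was made. In single embryonic-type barcodes Hbb-bh1 ranged from 0% to 10.9%, 9.15% and 11.4% of embryonic beta-type UMIs and Hba-x up to 31.3%, 39.7% and 36.9% of alpha-type UMIs. The 2 fractions ranked alike over the 275, 474 and 85 barcodes only in part (Spearman's rho 0.498, 0.339 and 0.0866), as a description over barcodes that share a library and differ in depth. Hba-x as a share of alpha-type UMIs also ranked with the number of genes in a barcode in both E12.5 pools (rho 0.520 and 0.307), and in the E14.5 pool rho was -0.0807.

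The balance between the 2 adult beta genes was far more variable in embryonic-type than in adult-type barcodes. In barcodes with at least 50 adult beta UMIs, Hbb-bt made up a median of 13.5%, 11.5% and 14.51% of Hbb-bt plus Hbb-bs in embryonic-type barcodes of the same 3 pools, and 19.2%, 17.2% and 16.0% in adult-type ones. The SD over barcodes was 12.8, 11.97 and 9.82 percentage points in the embryonic type, where counting error alone would give 1.26, 1.25 and 2.26. In the adult type the SD was 2.65, 3.72 and 4.04, with 0.631, 0.608 and 0.651 from counting. Embryonic-type values ran from 0% to 73.4%, 77.99% and 41.7%, and 6, 7 and 0 barcodes held more Hbb-bt than Hbb-bs, against 0 adult-type barcodes in each of the 3 pools. Some embryonic-type barcodes thus had adult beta UMIs assigned almost only to Hbb-bs and a few mainly to Hbb-bt, while adult-type barcodes clustered near a common ratio. The division of UMIs within this pair is uncertain, as given above, and that limit holds here too. The types were defined by the fraction of Hbb-y and Hbb-bh1, not by this ratio, and differed in depth of adult beta UMIs (medians of 1086, 874 and 317 against 4217, 4187 and 4535).

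**Figure D3:**
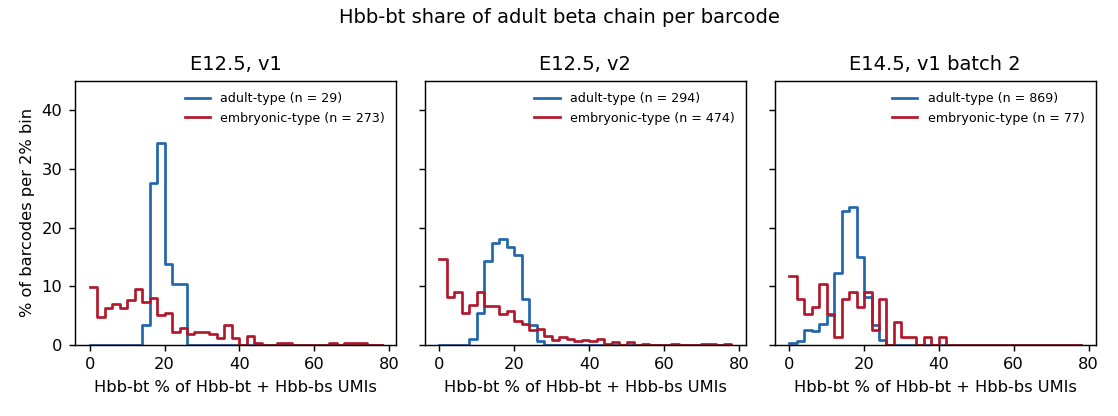
Distribution of Hbb-bt as a share of Hbb-bt plus Hbb-bs (x axis, %) over single barcodes (y axis, % of the barcodes of a type in bins of 2%), in red for the embryonic type and in blue for the adult type, with a panel for each of 3 pools. Embryonic-type barcodes spread from 0% to 77.99% and adult-type barcodes of these pools from 1.28% to 28.0%.

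Adult-type barcodes were defined by under 5% embryonic beta-type UMIs, which fixes that adult beta genes fill nearly all of their beta-type UMIs at every stage. Their globin make-up is therefore given as a description of the type, with nothing read from it on the adult beta share of whole pools. Hbb-bs held 48.0% and 52.6% of their globin UMIs at E12.5, then 47.7%, 51.5% and 54.7% at E14.5, and 53.2% and 49.1% at E17.5. Hbb-bt held 12.02% and 11.3%, then 14.3%, 10.4% and 6.35%, then 7.70% and 8.58%. The E12.5 values of Hbb-bs lay within the range of the later pools, and those of Hbb-bt lay above both E17.5 values and within the E14.5 range.

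Below 500 genes, the Hbb-bt share was higher in barcodes with more genes in 4 pools. At v1 E17.5 it was 11.3% of adult beta UMIs in adult-type barcodes under 100 genes, 14.3% from 100 to below 200 and 16.0% from 200 to below 500. At v2 E17.5 the values were 10.6%, 14.54% and 16.4%, and at v1 E14.5 batch 2 they were 12.3%, 16.1% and 18.8%. At v2 E14.5 it was 8.48% and 10.6% in the latter 2 bins. The order was the same in these 4 pools below 500 genes, with less Hbb-bt where fewer other genes were detected. Above 500 genes the pools differed. The share was 13.99% from 500 to below 1000 genes and 13.3% from 1000 genes at v1 E17.5, 16.2% and 15.8% at v2 E17.5, and 16.8% from 1000 genes at v1 E14.5 batch 2, all below their values from 200 to below 500 genes. At v2 E14.5, v2 E12.5 and v1 E14.5 batch 1 it was higher from 1000 genes, at 11.8%, 19.6% and 26.7%, than from 200 to below 500 genes, at 10.6%, 16.7% and 24.2%. At v1 E14.5 batch 1, which had the fewest UMIs per globin-rich barcode (median 2399), they were 24.0%, 21.3% and 24.2% and showed no such order. Fewer genes can come from less RNA in a cell or from shallower capture, and these cannot be told apart.

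Hbb-y and Hbb-bh1 behaved differently inside adult-type barcodes. The mean number of Hbb-y UMIs in an adult-type barcode was 1.897 at v1 E12.5 and 5.58 at v2 E12.5, near the 1.58 and 4.12 of barcodes under 5% globin. For Hbb-bh1 the means were 0.552 and 0.537 against 0.0197 and 0.0253, and at E14.5 they were 0.240, 0.0702 and 0.134 against 0.00407, 0.00142 and 0.000690. Most of these UMIs sat in a few barcodes. Of 11340 adult-type barcodes, 16 held 10 or more Hbb-bh1 UMIs and together 65.4% of the 644 Hbb-bh1 UMIs of the type, and 11171 held none. The 16, picked after their values were seen, came from all 7 pools (1, 5, 2, 2, 2, 1 and 3 in order of stage), and held 13 to 56 Hbb-bh1 UMIs, or 0.151% to 1.16% of their globin UMIs. They had 0 to 10 Hbb-y UMIs and 0 or 1 Hba-x UMI, and the 5 at v2 E12.5 held 3 to 10 Hbb-y UMIs. The definition of the type limits Hbb-y plus Hbb-bh1 to under 5% of beta-type UMIs and did not by itself fix counts this low, as another adult-type barcode held 67 Hbb-y UMIs. In embryonic-type barcodes of E12.5, by contrast, median counts were 5077 and 4326.5 for Hbb-y beside 42 and 22 for Hbb-bh1.

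The 2 types also differed in genes outside the 7. Since the types were split on globin UMIs of the same barcodes, and were chosen after values were seen, these differences are given as counts and values with no test. The 3 pools with the most embryonic-type barcodes were used (v1 E12.5, v2 E12.5 and v1 E14.5 batch 2). In barcodes under 1000 genes, 37 listed erythroid genes had at least 30 UMIs in each of them. Of these, 26 were higher in the adult type, in counts scaled to the non-globin UMIs of a type (CPM), in 3 of 3 pools, 4 were higher in the embryonic type in 3 of 3, and 7 were mixed. Over all 690 genes outside the 7 with as many UMIs, 36.4% were higher in the adult type in 3 of 3 pools and 21.6% in the embryonic type. Over all barcodes the listed counts were 27, 6 and 10 of 43, where 37.0% and 14.8% of 1416 genes stood on those sides. By list, beside the same 36.4% of all genes, 7 of 10 heme and iron genes, 7 of 8 membrane genes and 8 of 10 late-maturation genes were higher in the adult type in 3 of 3. The same held for 2 of 3 switching and erythroid factors, 2 of 4 chaperone and antioxidant genes and 0 of 2 other globins. The genes named next were picked after their values were seen.

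Lmo2, a partner of TAL1 and GATA1 in the erythroid complex, had 40.1, 8.34 and 34.3 CPM in embryonic-type and 1095, 282 and 675 CPM in adult-type barcodes (v1 E12.5, v2 E12.5 and v1 E14.5 batch 2). That was 27.3-fold (exact 95% counting interval 12.8 to 62.1), 33.8-fold (10.7 to 171, from 3 UMIs) and 19.7-fold (3.50 to 782, from 1 UMI) lower in the embryonic type. Alas2, the erythroid enzyme that starts heme synthesis, had 8871, 4317 and 3631 CPM against 16611, 12740 and 37206. Klf1, the activator of adult beta globin, had 324, 106 and 68.5 CPM against 1380, 134 and 174. All 3 genes stood on the same side in each pool, although the counting interval of the Klf1 ratio included 1 at v2 E12.5 (1.26-fold, 0.679 to 2.27) and at v1 E14.5 batch 2 (2.54-fold, 0.671 to 21.5, from 2 UMIs).

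Hmox1, heme oxygenase 1, stood on the other side, with 1206, 731 and 1096 CPM in embryonic-type barcodes (331, 263 and 32 UMIs) against 0, 22.3 and 6.34 CPM in adult-type ones (0, 3 and 2 UMIs). It was at least 8.45-fold higher in the embryonic type at v1 E12.5, 32.8-fold at v2 E12.5 (11.1 to 160) and 173-fold at v1 E14.5 batch 2 (44.1 to 1490). The first of these is set against 3 UMIs, and its exact lower limit was 6.83-fold. Over all barcodes, those with 1000 or more genes included, Hmox1 had 350, 348 and 34 UMIs in embryonic-type and 1, 77 and 7 in adult-type barcodes. The v2 E12.5 levels were then 297 and 140 CPM, a ratio of 2.12 beside the 32.8 of barcodes under 1000 genes. The UMIs were in 16.5%, 26.1% and 16.0% of embryonic-type barcodes and in 0%, 1.30% and 0.249% of adult-type ones, where 0 of 25 barcodes allows up to 12%. Barcodes under 5% globin held Hmox1 in 7.27%, 10.7% and 11.2%, at other depths. The ferritin chains were also higher, Fth1 by 2.59, 2.56 and 2.07-fold and Ftl1 by 1.81, 1.74 and 1.42-fold. Tal1, the erythroid factor that partners LMO2, had 572, 417 and 719 CPM in the embryonic type against 571, 81.7 and 41.2 CPM, with no separation at v1 E12.5 (ratio 1.00, 0.557 to 1.98). The other 7 heme and iron genes, which serve heme synthesis and mitochondrial iron import, stood higher in the adult type.

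**Figure D4:**
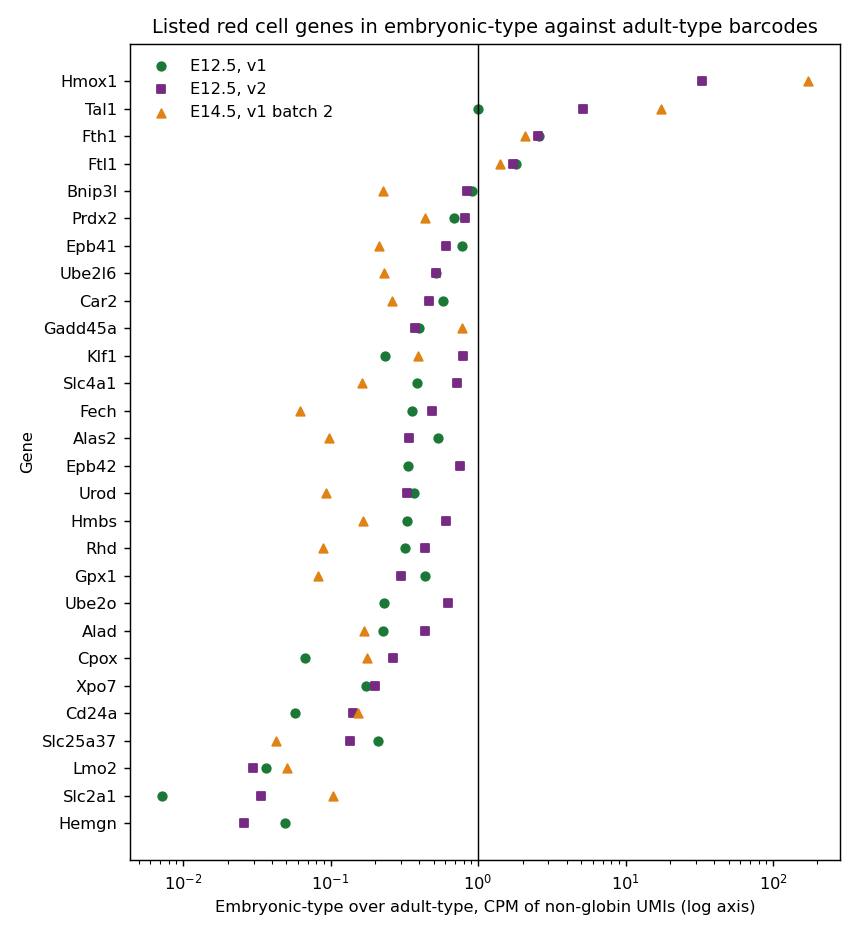
Ratio of embryonic-type to adult-type barcodes in CPM of non-globin UMIs (x axis, log scale) for 28 listed genes that lay on the same side in 3 of 3 pools, with 1 symbol for each pool, from barcodes under 1000 genes. Genes at 0 in a type of a pool lack that pool's symbol, as Hmox1 at v1 E12.5. Of the genes drawn, 4 lie to the right of 1 and 24 to the left.

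Across the stages, the switching regulators and erythroid factors fell or were not called in globin-rich barcodes as a whole. Of 21 listed, 17 were tested, and from E12.5 to E17.5 none was called higher and 6 lower (0 and 11 at an unadjusted p below 0.05, 1 and 2 called by DESeq2), with a list median of -1.78 beside -1.23 for all genes. Of all genes tested, 1.24% were called higher and 9.67% lower in this comparison, and 3492 of 9512 had an unadjusted p below 0.05 (edgeR, either direction). Counts over all genes by DESeq2 and TMM are given further below. Levels here are CPM of all UMIs of the globin-rich barcodes. The globin genes held a mean of 82.3% of those UMIs in the E12.5 pools and 91.8% in the E17.5 pools. Falls of genes in this and the next lists were not separated from that larger globin share. Embryonic-type barcodes were 90.5% and 61.5% of globin-rich barcodes at E12.5 (v1 and v2) and 0.0805% and 0.0144% at E17.5. Changes of listed genes were not separated from this change in the mix of types either. Hmga2, a chromatin protein of the Lin28 and let-7 axis, had 24.6 and 78.9 CPM at E12.5, then 3.803, 4.204 and 38.6 at E14.5, and 0.420 and 3.26 at E17.5. It fell by 5.23 on the log2 scale from E12.5 to E17.5 (adjusted p = 8.14e-08, edgeR) and by 3.83 with TMM (adjusted p = 0.000319). Tal1 had 52.8 and 29.1 CPM, then 18.1, 6.31 and 3.91, then 1.76 and 3.46, and fell by 3.79 (adjusted p = 6.07e-05, and 0.0122 with TMM). Igf2bp1, an mRNA-binding protein of the same axis, fell by 2.90 (adjusted p = 0.00439, 0.0462 with TMM and 0.109 with DESeq2). Bcl11a, at 1.59 to 7.52 CPM in v2 and 0.168 and 2.96 CPM in v1 at these stages, fell by 2.85 (adjusted p = 0.00840), a call that TMM did not give (0.172). At v2 E12.5 only 64 of 587 Hmga2 UMIs, 10 of 94 Igf2bp1 UMIs and 7 of 56 Bcl11a UMIs lay in globin-rich barcodes under 1000 genes, and 79.5% of those with 1000 or more genes held at least 3 epithelial or mesenchymal marker UMIs. In a fit on barcodes under 1000 genes alone, added after the data were seen, Hmga2 fell by 5.09 (adjusted p = 7.98e-05, edgeR) and Tal1 by 5.51 (adjusted p = 3.35e-06). There Igf2bp1 was not called (adjusted p = 0.0657) and Bcl11a had too few UMIs to be tested. How much the marker-bearing barcodes add to the levels of these genes was not tested further.

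Klf1 had 38.2 and 12.6 CPM at E12.5, then 78.9, 14.9 and 19.1 at E14.5, and 6.81 and 13.5 at E17.5. The E12.5 pools overlapped those of both later stages, and the E14.5 pools lay above the E17.5 pools. Its difference of -1.02 from E12.5 to E17.5 was not called (adjusted p = 0.254) and turned to 0.24 with TMM. In the fit on barcodes under 1000 genes Klf1 fell by 2.50 from E12.5 to E17.5 (adjusted p = 0.0216, edgeR) and by 2.94 from E14.5 to E17.5 (adjusted p = 0.0202). Lmo2, named after its values were seen, stood at 13.6 and 8.46 CPM at E12.5 and at 20.2 CPM or more in each later pool. Its difference of 1.00 was not called with total UMIs as library size (adjusted p = 0.246) and was called at 2.26 with TMM (adjusted p = 0.00777).

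The unadjusted counts of the next lists also stand beside 3492 of 9512 genes with an unadjusted p below 0.05 (edgeR, either direction). Against the same 1.24% higher and 9.67% lower of all genes, heme and iron genes gave 0 higher and 5 lower of 15 from E12.5 to E17.5 by edgeR (1 and 8 at an unadjusted p below 0.05, 3 and 0 by DESeq2), among them Hmox1, which fell by 5.64 on the log2 scale (adjusted p = 1.49e-08, 0.0197 with TMM and 0.256 with DESeq2), and Fth1, which fell by 2.25 (adjusted p = 0.000474, and 0.597 with TMM). Slc25a38, a mitochondrial glycine carrier, fell by 2.33 (adjusted p = 0.0239, edgeR) and Uros, an enzyme of heme synthesis, by 2.13 (adjusted p = 0.0397), and TMM called neither (0.418 and 0.597). Alas2 had 899 and 649 CPM at E12.5 and 2228 and 1789 at E17.5, a difference of 1.40 that was not called (adjusted p = 0.0595) but was called with TMM at 2.64 (0.0275). Membrane genes gave 2 higher and 4 lower of 17 (2 and 7 at an unadjusted p below 0.05, beside the same 3492 of 9512 genes, and 2 and 0 by DESeq2). The 2 higher ones, Aqp1, a water channel, and Car1, a carbonic anhydrase, had 5 and 1 UMIs in all at E12.5, and both calls were kept with TMM (adjusted p = 0.00244 and 0.00429). At E17.5 only 5 of 27 (v1) and 52 of 606 (v2) Aqp1 UMIs lay in barcodes under 1000 genes, against 12 of 18 and 80 of 128 Car1 UMIs. Barcodes with 1000 or more genes, of which 74.6% and 65.5% held epithelial or mesenchymal marker UMIs, thus carried most Aqp1 UMIs, and their part in its rise was not tested. In the fit on barcodes under 1000 genes Aqp1 could not be tested and Car1 rose (adjusted p = 0.0382, edgeR). Of the lower membrane genes, Kel, a blood group protease, fell by 2.44 (adjusted p = 0.0197, edgeR) and Ermap, an erythroid membrane protein, by 2.33 (adjusted p = 0.0266), and neither was called with TMM (0.381 and 0.494). Late-maturation genes gave 0 higher and 2 lower of 11 by edgeR (2 and 2 at an unadjusted p below 0.05), while DESeq2 called 2 higher and 0 lower. The genes that edgeR called were Gadd45a, a growth arrest gene, which fell by 2.22 (adjusted p = 0.0266, edgeR), and Xpo7, a nuclear exportin, which fell by 2.03 (adjusted p = 0.0412), and TMM called neither (0.424 and 0.552). Of the remaining lists, 0 of 4 chaperone and antioxidant genes and 0 of 3 other globins were called by edgeR or DESeq2. At an unadjusted p below 0.05 (edgeR), 0 chaperone and antioxidant genes were higher and 2 lower, and 0 other globins stood on either side. With TMM the lists gave 1 higher and 3 lower (factors), 2 and 1 (heme and iron), 2 and 0 (membrane), and 3 and 0 (late maturation). The 1.24% and 9.67% of all genes belong to the fit with total UMIs and are no measure for these TMM counts. With TMM most of the genes called over all genes were higher, as given with the processing below. In barcodes under 1000 genes, where 34 genes of 4259 were called higher and 1501 lower, the lists gave 0 and 7 of 12 (factors), 0 and 9 of 15 (heme and iron), 1 and 8 of 16 (membrane), and 0 and 2 of 11 (late maturation). The 2 remaining lists gave 0 and 1 of 4 there (chaperone and antioxidant) and 0 and 0 of 2 (other globins). From E12.5 to E14.5 the listed genes called included Cd36, a fatty acid receptor, which rose by 3.17 (adjusted p = 0.0150, edgeR), and Tal1 and Hmox1, which fell by 2.32 and by 3.32 (adjusted p = 0.0287 and 0.000317), and with TMM no late-maturation gene was called. Cd36 had 0 and 12 UMIs at E12.5 and 16, 11 and 16 at E14.5. Its stages overlapped, with 1.61 CPM at v2 E12.5 and 1.54 CPM at v1 E14.5 batch 2. Ahsp, the alpha-globin chaperone, is not listed in the matrices.

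Among 255 genes with a mean of 100 CPM or more, the 3 whose log2 levels over the 7 pools were most like those of Hbb-y were Hsd3b6 (r = 0.973), Tuba1a (0.890) and Fam104a (0.887), as a description over 7 pools that share stages. Hsd3b6, a steroid dehydrogenase with closely related copies, had 575 and 305 CPM at E12.5, then 15.2, 66.9 and 24.9 at E14.5, and 5.21 and 4.99 at E17.5. It was highest of the E14.5 pools in v1 batch 2, as Hbb-y was. The genes most like Hbb-bs were Fam220a (r = 0.929), Cd24a (0.835), a surface protein of young red cells, and Ube2c (0.777), a cell-cycle ubiquitin enzyme.

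Globin mRNA was found in nearly all other cells at a low level, and its embryonic share followed that of the red cells of the same pool. In barcodes under 30% globin, the 7 genes made up 0.155% ± 0.0959 (SD, n = 2) of UMIs at E12.5, 0.330% ± 0.187 (n = 3) at E14.5 and 1.06% ± 0.480 (n = 2) at E17.5. With the limit at 5% the means were 0.0898%, 0.0917% and 0.326%, so E12.5 and E14.5 were then alike and only E17.5 stood higher. In barcodes under 5% globin, medians of 2 to 36 globin UMIs were found, and 84.4% to 100% of them held at least 1. The embryonic share of their globin UMIs was 59.7% and 38.7% at E12.5, then 1.52%, 3.96% and 2.67% at E14.5, and 0.151% and 0.127% at E17.5. The 3 stages did not overlap, and the 7 pools stood in the same order as for globin-rich barcodes.

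In barcodes under 5% globin the share was above that of globin-rich barcodes in 7 of 7 pools, by 1.00 to 22.5 times, least at v2 E12.5 and most at v2 E17.5. The limit decides the direction at E12.5. In all barcodes under 30% globin the E12.5 shares were 45.7% and 34.0%, below the 49.8% and 38.6% of globin-rich barcodes, while the 5 later pools stood at or above theirs (2.503% against 2.476% in the nearest, v1 E14.5 batch 2). A few barcodes held much of it at the later stages. The 5 barcodes with the most embryonic globin UMIs held 77.7% of them at v2 E17.5, 65.4% at v1 E17.5 and 45.5% at v2 E14.5. Without these 5 in each pool, a step added after the data were seen, the shares were 59.5%, 38.7%, 0.998%, 3.72%, 1.48%, 0.0527% and 0.0284%, above the globin-rich barcodes in 7 of 7. The 22.5 times at v2 E17.5 thus rested largely on 5 barcodes (0.127% with and 0.0284% without them, against 0.00563%). Without them v1 E14.5 batch 1 stood furthest above its globin-rich barcodes, at 0.998% against 0.116%. At v2 E12.5 the exact 95% interval of the share without the 5 (38.4% to 38.9%) included the 38.6% of globin-rich barcodes, so no difference was detectable there. Taken as a share of beta-type UMIs, embryonic genes were higher in 6 of 7 pools, with a lowest ratio of 0.953. The alpha-type share went the other way, at 0.733 to 0.866 times that of globin-rich barcodes in the 7 pools, and Hbb-bs was higher in 7 of 7 (1.098 to 1.24 times). The globin found in other cells was thus not a plain copy of the sum over globin-rich barcodes.

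Cell classes of an E12.5 pool held a like mix. Classes were set by marker UMIs (at least 5 of a class, from at least 3 of its markers, and 3 times those of any other class). At v2 E12.5 the embryonic share was 39.6% in epithelial, 39.2% in mesenchymal, 39.8% in endothelial and 39.0% in white cell barcodes, and their Hbb-y UMIs were in 94.7% to 97.2% of barcodes. At v1 E12.5 it was 59.6%, 61.2%, 67.2% (exact 95% interval 54.6% to 78.2%) and 51.9% (40.4% to 63.3%). At v2 E17.5 epithelial barcodes held 0.199% (0.183% to 0.217%) and mesenchymal ones 0.0173% (0.00894% to 0.0302%). At v1 E17.5 the order was the other way, with 0.0787% (0.0162% to 0.230%, from 3 UMIs) and 0.242% (0.152% to 0.366%, from 22 UMIs). The highest single barcode under 5% globin at v2 E17.5 held 225 of its 596 embryonic globin UMIs, and the 5 highest held 463.

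**Figure D5:**
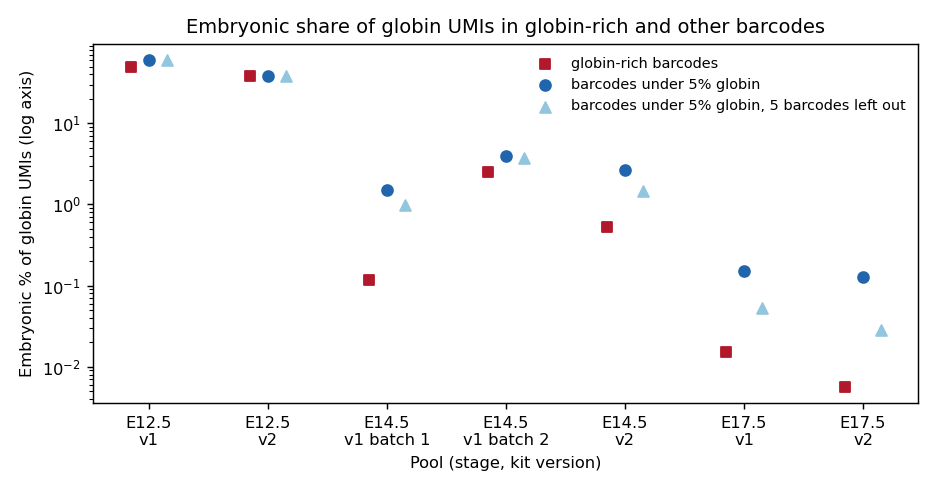
Embryonic share of globin UMIs (y axis, %, log scale) in each of 7 pools (x axis), for globin-rich barcodes (squares), barcodes under 5% globin (circles) and the latter without the 5 barcodes with the most embryonic globin UMIs (triangles). The circle lies above the square in 6 pools, by up to 22.5 times at v2 E17.5, and the symbols coincide at v2 E12.5 (38.7% and 38.6%).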

How the data were processed

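UMI counts per gene and cell barcode (10x Chromium) were deposited by the authors as matrices of 27775 genes (v1) and 27998 genes (v2), not normalized. The submitters' processing notes name Cell Ranger 1.1 and 2.1 with mm10. v1 suspensions held all live cells after size selection against doublets, and v2 suspensions were depleted of CD140a+ cells. The study's limit of 200 genes was not applied here, no doublet caller was run, and 2 further Fev-Cre samples were not used.

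From the counts, barcodes with 30% or more of UMIs in the 7 genes were taken, and UMIs were summed per pool. The numbers of v1 mark a batch, which pairs its batch 2 pools by the study's methods, and v2 numbers mark wells. The pool of a litter was the sample, and both v2 E17.5 wells were summed. Library totals were 15671934 to 127151679 UMIs. Exact (Clopper-Pearson) 95% intervals and limits for a count of 0 (3 counts) cover counting error only. edgeR 4.0.16 in R 4.3.3 fitted all 7 pools (glmQLFit, kit as a term, filterByExpr, total UMIs as library size, Benjamini-Hochberg over 9512 genes), and the script was tested on simulated data. Alternatives were TMM, DESeq2 1.42.0, no filter, no kit term, globin UMIs as library size, other globin limits, barcodes under 1000 genes and batch as a replicate block (both added after the data were seen), and each pool left out. In the gene fits it was each library that was left out. There v2 E17.5 lost only either of its wells and was never left out whole. Shares were computed in Python 3.11.15.

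Members and gene lists were chosen with earlier results of these data known, so their counts are descriptions. The genes named were the 7 members, of each list at most the 4 with the largest called change from E12.5 to E17.5, Bcl11a, Klf1, Ahsp and Alas2, and the 3 genes most like Hbb-y and Hbb-bs by Pearson's r of log2(CPM + 10). Lmo2, Ftl1, Cd36 and the genes named between the types were added after their values were seen. Gene positions came from GENCODE M21 (GRCm38) and promoters from RefSeq (GRCm38.p6). Some listed genes are not reported here.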

Additional observations from a re-analysis of the deposited data

Results flagged for a closer look

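Some globin shares moved in opposite directions with stage in the 2 kit versions, and these differences were not tested, as a kit holds 1 pool for most stages. Values are percentage points, v1 first. From E14.5 to E17.5 the share of Hbb-bt in globin UMIs changed by -4.42 and 2.28, and that of Hbb-bs by 4.69 and -5.16. Hbb-bt as a share of Hbb-bt plus Hbb-bs changed by 3.95 and -5.86 from E12.5 to E14.5, and by -7.28 and 4.48 from E14.5 to E17.5. The alpha-type share of globin UMIs changed by -0.837 and 4.41 from E12.5 to E14.5. Hba-a2 changed by 0.0115 and -1.11 in its share of globin UMIs from E12.5 to E17.5. As a share of Hba-a1 plus Hba-a2 it changed by 0.0603 and -0.0822 from E12.5 to E14.5, and by 0.0202 and -3.98 from E12.5 to E17.5.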

How the results depend on the processing

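The order of the stages in embryonic share held under each alternative run except the median over barcodes, which was 0% at E14.5 as at E17.5. The mean share at E12.5 was 53.6% as the median over barcodes. At E17.5 it was 0.0407% in barcodes of 200 or more genes and 0% as the median over barcodes. Mixed barcodes at E12.5 were 25.8% with 20% to 80% as the range. In barcodes under 5% instead of under 30% globin the embryonic share was 49.2%, 2.72% and 0.139% by stage, and in barcodes under 30% at E17.5 it was 0.0154% without the top 5 barcodes of each pool, which was added after the data were seen. Without 1 pool, the share ran over 38.6% to 49.8%, 0.321% to 1.501% and 0.00563% to 0.0150% by stage, mixed barcodes over 54.6% to 82.2%, 0.840% to 4.09% and 0% to 0%, and the share in barcodes under 30% globin over 34.0% to 45.7%, 1.17% to 2.02% and 0.0537% to 0.0791%.

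Gene counts depended on the fit, and the cause was not tested. A pool left out is here a library left out, so v2 E17.5 lost only either well and no fit lacked it. In globin-rich barcodes the 7 genes held 82.3% ± 7.77 (SD, n = 2) of UMIs in the E12.5 pools. The share was 79.2% ± 13.6 (n = 3) in the E14.5 pools and 91.8% ± 4.32 (n = 2) in those of E17.5. With total UMIs as library size, the levels of all other genes depend on this share, and its part in the counts was not tested. In barcodes under 1000 genes, an alternative added after the data were seen, 4259 genes could be tested, and 1535, 84 and 671 were called from E12.5 to E17.5, E12.5 to E14.5 and E14.5 to E17.5 (2.21%, 35.7% and 0.596% higher), with each of the 7 genes called as before. Against 1038 genes from E12.5 to E17.5 (11.4% higher), TMM gave 499 (71.5% higher), DESeq2 391, no kit term 16, globin UMIs as library size 522, a limit of 50% globin 4826 and leaving out a pool 148 (without v1 E12.5) to 3379 (without v1 E14.5 batch 2). Against 185 from E12.5 to E14.5 (75.1% higher), TMM gave 119 (31.9%), no kit term 4, globin size 95, 50% globin 97 and leaving out a pool 11 (without v1 E12.5) to 198. Against 5637 from E14.5 to E17.5 (0.852% higher), TMM gave 92 (89.1%), DESeq2 86, no kit term 9, 50% globin 3734 and leaving out a pool 84 (without v1 E17.5) to 6700.

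The embryonic genes kept their direction in 48 alternative values each, from 16 settings in each stage comparison. Of these values, Hbb-y lost the call in 4 (with TMM and with DESeq2), Hbb-bh1 in 2 and Hba-x in 1. Adult genes changed sign only where no call was made. In the values below, a pool left out is again a library left out, so v2 E17.5 was in every fit. From E12.5 to E17.5 Hba-a2 was 0.90 (TMM), 0.94 (DESeq2) and -0.82 to 0.33 without 1 pool. From E12.5 to E14.5 Hba-a1 was -0.43 (TMM) and -0.40 (DESeq2), and Hba-a2 was -0.13, -0.10, -0.54 (no kit term) and -0.22 to 0.91 without 1 pool. From E14.5 to E17.5 Hbb-bt was 1.69 with TMM and with DESeq2 and -0.68 to 0.21 without 1 pool, Hbb-bs was -0.017 with globin size, and Hba-a2 was 1.03 (TMM) and 1.04 (DESeq2). DESeq2 called Hba-a1 higher at E17.5 than at E12.5 (adjusted p = 0.0301) and E14.5 (adjusted p = 0.00286).

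With batch as a replicate block, added after the data were seen, 1611, 154 and 4480 genes were called (E12.5 to E17.5, E12.5 to E14.5 and E14.5 to E17.5), and the calls for the 7 genes did not change. Batch 2 of v1 was 1 collection, and v1 E14.5 batch 1 had a term of its own. That pool thus added nothing to the stage differences, and E14.5 rested on v1 batch 2 and v2. v2 was taken as a set although its stages were run on different days, so day and stage cannot be told apart within v2. Hbb-bt turned to 0.21 from E14.5 to E17.5, with no call in either fit. With 2 or 3 pools a stage, small changes of adult globins could not be told from the spread between litters.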
